A study of Drosophila melanogaster with 6 samples.

Results

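The U2 small nuclear RNA (snRNA) of the fruit fly (Drosophila melanogaster) is made from several gene copies, and 5 of its copies, among 527 annotated transcripts in the deposited table of short RNAs, are described here. They were chosen by name alone, as the transcripts whose annotated gene name starts with snRNA:U2:. The annotation holds 6 U2 genes, and 5 of them were followed. The other, U2:34ABc, was not analysed here, and whether its reads were counted on the row of a listed copy was not tested, so each copy's level and share below are those of its row in the table. The mutant flies, labelled dC53EY22749, were females that carried 1 disrupted copy of Polr3D, a subunit found only in RNA polymerase III (Pol III), with the P-element EY22749 inserted in it. The insertion had been backcrossed into the outbred Dahomey background, and the wild-type females, labelled White Dahomey, shared that background. Midguts were dissected from flies about a week old and pooled, RNA of less than 200 nucleotides was enriched and demethylated, and 3 mutant and 3 wild-type libraries were sequenced. Homozygotes are not viable, and the authors cite reduced Polr3D mRNA in heterozygous females. The flies carried the insertion in every tissue, and how far Pol III function was lost in each was not measured here.

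U2 is the RNA core of the U2 small nuclear ribonucleoprotein, the particle that recognises the branch point of an intron by base pairing and makes the branch-point adenosine bulge out for the first step of splicing. It later pairs with U6 in the active centre of the spliceosome. U2 is transcribed by RNA polymerase II, as are U1, U4 and U5, while U6 and U6atac are Pol III products. The comparison between genotypes therefore asks what a partial loss of Pol III does to an abundant short RNA that Pol III does not make, next to the Pol III-made U6 with which it works.

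Estimated counts over the whole table totalled 13465392 to 16891428 per library. Neither Polr3D mRNA nor mRNA markers of the midgut were analysed here, so genotype and tissue are those the labels give. Levels are given as CPM, counts scaled to a library of 1000000 after TMM scaling of the total. In bulk RNA, fewer cells of a type and less RNA per cell cannot be told apart.

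The listed copies lie at 3 places in the genome (BDGP6 assembly), each as a gene of 1 exon. U2:34ABa (2L, 13211925 to 13212116, minus strand) and U2:34ABb (2L, 13215839 to 13216030, plus strand) stand head to head, 3722 bases apart. U2:38ABb (2L, 19812646 to 19812836, plus strand) and U2:38ABa (2L, 19815614 to 19815805, minus strand) lie 2777 bases apart within an intron of the protein-coding gene sick. U2:14B is on the X chromosome (16254672 to 16254863, plus strand) and overlaps no other annotated gene. Near each of U2:38ABa, U2:38ABb and U2:14B, between 554 and 608 bases away, a U5 gene points in the opposite direction. U2:38ABb is annotated at 191 bases and the others at 192 bases, so their counts can be compared directly as levels per length. These lengths lie close to the upper limit of the size selection. Counts were divided among the copies by Salmon, the authors' quantifier, and how far the copies' sequences allow that division was not tested.

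Nearly all U2 counts in the midgut fell on the row of U2:34ABb. U2:34ABb took 97.5%, 96.5% and 97.3% of U2 counts in mutant replicates 1, 2 and 3, against 96.3%, 97.1% and 95.8% in wild-type replicates 1, 2 and 3. U2:38ABa took 2.28%, 3.07% and 2.61% in the mutant libraries, against 3.25%, 2.84% and 3.61% in the wild-type libraries. U2:14B took 0.215%, 0.469% and 0.0979% in the mutant, against 0.471%, 0.0790% and 0.577% in the wild type. The order of these copies was the same in all 6 libraries, with U2:34ABb highest and U2:14B lowest of the 3. U2:34ABa and U2:38ABb were almost without counts. U2:34ABa had 0 counts in every mutant library, against 0, 0 and 6 counts in wild-type replicates 1, 2 and 3. U2:38ABb had 1, 0 and 0 counts in the mutant libraries, against 0, 0 and 1 in the wild-type libraries. A count of 0 allows up to 3 counts, or 0.217 CPM in the library with the smallest scaled total, so these copies were at most near that floor in nearly every library, and no fold change is given for them. Such limits cover counting error only.

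**Figure D1:**
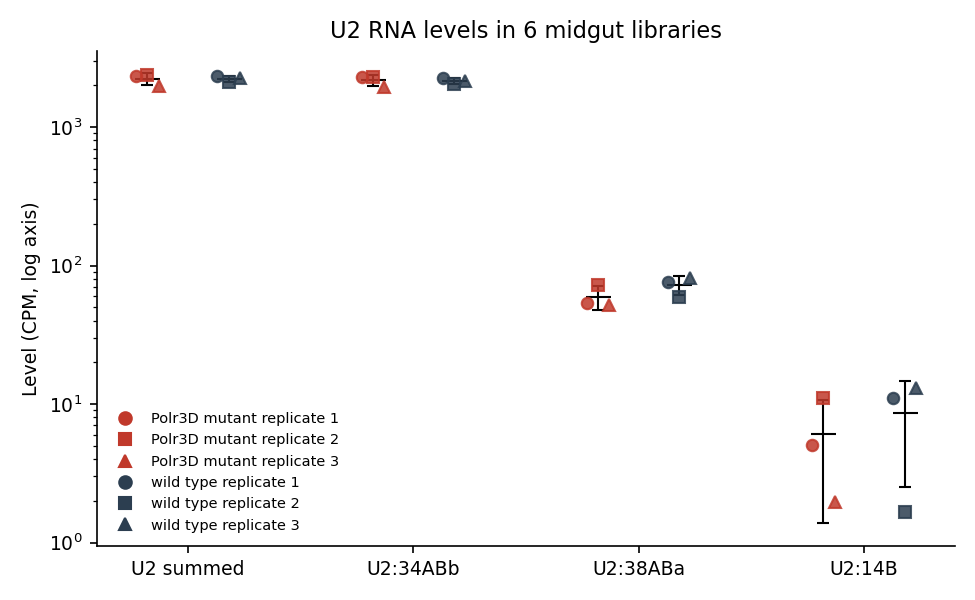
Levels of summed U2 and of its 3 tested gene copies in CPM (log axis), 3 Polr3D mutant libraries left and 3 wild-type libraries right within each pair; points are libraries, bars the mean and SD. Summed U2 and U2:34ABb sit close together in every library, with summed U2 between 1994 and 2370 CPM, U2:38ABa between 52.0 and 81.3 CPM, and U2:14B spreads from 1.66 to 13.0 CPM.

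The total of U2 did not differ detectably between the genotypes. Summed U2 reached 2347, 2370 and 1994 CPM in mutant replicates 1, 2 and 3, against 2346, 2103 and 2250 CPM in wild-type replicates 1, 2 and 3. The groups overlapped, and the lowest and the highest of the 6 values were both from mutant libraries. The means were 2237 ± 211 CPM in the mutant, against 2233 ± 122 CPM in the wild type (SD, n = 3 each). The log2 fold change was 0.0023 (SE 0.14), and its 95% interval ran from -0.32 to 0.32 (edgeR quasi-likelihood test, adjusted p = 0.994). As a share of all counts in the table, with no scaling between libraries, U2 made up 0.228%, 0.216% and 0.189% in mutant replicates 1, 2 and 3, against 0.265%, 0.217% and 0.230% in wild-type replicates 1, 2 and 3. On this measure wild-type replicate 2 lay below mutant replicate 1, so the groups overlapped here too. The sign of the log2 fold change turned with scaling on total counts (-0.17) and on mitochondrial tRNAs (-0.18), which moved the median of all transcripts to -0.22 and -0.24. Relative to that median, summed U2 stood at 0.05 with TMM scaling, 0.05 with total counts and 0.07 with mitochondrial tRNA scaling.

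Of the 5 U2 transcripts, 3 passed the filter on low counts and were tested among 411 transcripts. None of the 3 passed an adjusted p of 0.10, and none had an unadjusted p below 0.05. Over all tested transcripts 1.22% passed that threshold in the edgeR test, all of them higher in the mutant, and 14.8% had an unadjusted p below 0.05. With DESeq2, which called 30 of the 411, none of the 3 passed. Limma-voom called 0 of the 411, so its lack of a U2 call says nothing of U2. U2:34ABb, the main copy, had 2288, 2286 and 1940 CPM in mutant replicates 1, 2 and 3, against 2259, 2042 and 2156 CPM in wild-type replicates 1, 2 and 3, which overlapped. Its log2 fold change was 0.013 (SE 0.14, 95% interval -0.30 to 0.33, edgeR adjusted p = 0.964), and its sign turned with total counts (-0.16) and with mitochondrial tRNA scaling (-0.17).

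The 2 minor copies had negative fold changes that did not pass the test. U2:38ABa had 53.4, 72.6 and 52.0 CPM in mutant replicates 1, 2 and 3, against 76.2, 59.7 and 81.3 CPM in wild-type replicates 1, 2 and 3. Mutant replicate 2 lay above wild-type replicate 2, so the groups overlapped. The log2 fold change was -0.29 (SE 0.18, 95% interval -0.69 to 0.12, edgeR adjusted p = 0.458). It was -0.46 with total counts only and -0.48 with mitochondrial tRNA scaling, below 0 with every library left out, and the adjusted p ranged from 0.160 to 0.734 over the alternatives. U2:14B had 5.05, 11.1 and 1.95 CPM in mutant replicates 1, 2 and 3, against 11.04, 1.66 and 13.0 CPM in wild-type replicates 1, 2 and 3. The groups overlapped across almost their whole ranges, and the log2 fold change was -0.50 (SE 0.71, 95% interval -2.12 to 1.12, edgeR adjusted p = 0.713). Without mutant replicate 2 the log2 fold change was -1.25 and without mutant replicate 3 it was -0.065, so single libraries set its size.

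Variant usage, the share of each copy within U2, does not depend on how libraries are scaled. The share of U2:34ABb was 97.1% ± 0.549 in the mutant, against 96.4% ± 0.649 in the wild type (SD, n = 3 each), a difference of 0.70 percentage points (exact permutation test, two-sided p = 0.2, adjusted over 3 copies 0.3). The share of U2:38ABa was 2.65% ± 0.396 in the mutant, against 3.23% ± 0.385 in the wild type (SD, n = 3 each), a difference of -0.58 percentage points (exact permutation p = 0.2, adjusted 0.3). The share of U2:14B was 0.261% ± 0.190 in the mutant, against 0.375% ± 0.262 in the wild type (SD, n = 3 each; exact permutation p = 0.7, adjusted 0.7). Shares of a whole depend on each other, so the main copy's difference mirrors that of the minor ones. The smallest p that 3 libraries against 3 can give is 0.1. Mutant and wild-type values overlapped for all 3 copies. The 95% Wilson interval for the share of U2:38ABa, which covers counting error only, ran from 2.12% to 2.44% in mutant replicate 1 and from 2.89% to 3.25% in mutant replicate 2, against 3.07% to 3.44% in wild-type replicate 1, 2.66% to 3.03% in wild-type replicate 2 and 3.43% to 3.80% in wild-type replicate 3. In mutant replicate 3 it ran from 2.43% to 2.80%. The interval of mutant replicate 2 overlapped those of wild-type replicates 1 and 2, and that of mutant replicate 3 overlapped that of wild-type replicate 2.

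**Figure D2:**
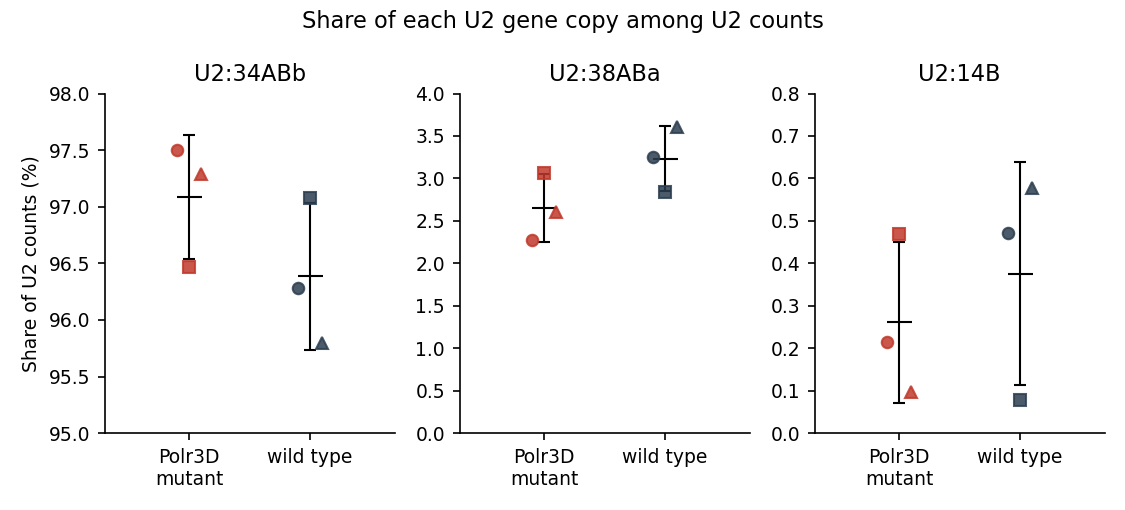
Share of all U2 counts (%) taken by U2:34ABb, U2:38ABa and U2:14B, each on its own axis (that of U2:34ABb starts at 95%), with Polr3D mutant libraries left and wild-type libraries right; circles, squares and triangles are replicates 1, 2 and 3, bars the mean and SD. In all 3 panels the mutant replicate marked by a square lies within the range of the wild-type libraries.

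A single leading row was also found in the other spliceosomal RNAs with several listed transcripts, and for these too it was not tested whether a row holds reads of further gene copies. U1:95Cb took 99.4% to 99.7% of U1 counts over the 6 libraries, and the main U4 copy (FBtr0081489) took 97.6% to 98.7% of U4 counts. U5:63BC took 78.5% to 87.3% of U5 counts, the lowest share of a leading row among these 4 RNAs in every library, against 95.8% to 97.5% for U2:34ABb. These are different genes with different numbers of listed transcripts, and no test of their shares against each other was run.

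U2:14B stood apart from the other copies by its spread within a genotype. Over all 6 libraries its highest level was 7.81 times its lowest, against 1.56 times for U2:38ABa. The within-genotype SD of its log2 CPM was 1.42, and 2 of the 411 tested transcripts had a larger one. The median SD was 0.25 among the 56 other transcripts whose mean count was within a factor of 2 of its own, and none of them exceeded it. A wide spread was not particular to U2:14B. The minor copy U1:95Cc ran from 1.73 to 7.61 CPM within the mutant libraries and from 2.53 to 17.6 CPM within the wild-type libraries. Counting error alone would give U2:14B an SD of about 0.19. Error in dividing reads among the copies is not part of that value, and its share in the spread was not tested. For example, its 168 counts in wild-type replicate 1 have an exact Poisson interval of 144 to 195, against 16.2 to 36.9 around the 25 counts of wild-type replicate 2. U2:34ABb was at the other end, with an SD of 0.11 that 363 of the 411 transcripts exceeded. U2:38ABa lay between, at 0.25, close to the median of 0.23 over all tested transcripts.

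Both minor copies were highest in the same libraries, mutant replicate 2, wild-type replicate 1 and wild-type replicate 3. This pattern was noticed after the values were seen. Of the 21 snRNA transcripts tested, 9 had these libraries as their highest 3, against 35 of all 411 transcripts (8.52%). Both minor U2 copies set the choice of libraries and are counted in each of these numbers, so the numbers are no test of the pattern. Besides U2:14B and U2:38ABa they were U1:82Eb, U1:95Cc, U4:38AB, U5:23D, U5:38ABb, U12 and the snRNA LU, and the leading copies of U1, U2, U4 and U5 were not among them. U1:95Cc, for example, had 1.73, 7.61 and 6.06 CPM in mutant replicates 1, 2 and 3, against 12.6, 2.53 and 17.6 CPM in wild-type replicates 1, 2 and 3. These libraries also had the largest TMM-scaled totals, from 15217302 to 17180847, against 13848046 to 15048777 in the other 3. Before scaling, mutant replicate 2 (16891428) and wild-type replicate 3 (16830690) had the largest totals, but wild-type replicate 1 had the smallest (13465392). Mutant replicate 3, not among these libraries, had 15643766. The part of sequencing depth in the pattern was not tested. The 3 libraries come from both genotypes.

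The minor copies were then set beside the U5 genes that face them. U5 holds the exon ends together during splicing. U5:38ABb, 608 bases from U2:38ABa, had 0.722, 2.02 and 0.606 CPM in mutant replicates 1, 2 and 3, against 2.23, 0.864 and 2.33 CPM in wild-type replicates 1, 2 and 3. The 6 libraries came in the same order for both genes (Spearman's rho 1.0, Pearson's r 0.99 on log2 CPM, 6 libraries). U5:38ABb had only 10, 31 and 9 counts in mutant replicates 1, 2 and 3, against 34, 13 and 40 in wild-type replicates 1, 2 and 3. Close ranks, such as those of 9 and 10 counts, can therefore turn with counting error. Of all tested transcripts U5:38ABb had the profile most like that of U2:38ABa, and the next had a Pearson's r of 0.96. U5:14B, 554 bases from U2:14B, had 39.9, 42.7 and 19.1 CPM in mutant replicates 1, 2 and 3, against 16.4, 22.5 and 29.3 CPM in wild-type replicates 1, 2 and 3. It did not follow U2:14B closely (Spearman's rho 0.37, Pearson's r 0.32, 6 libraries), with wild-type replicate 1 lowest for U5:14B and among the 3 highest for U2:14B. In the third pair U2:38ABb was at the floor while U5:38ABa, 571 bases away, averaged 74.1 CPM in the mutant, against 63.6 CPM in the wild type. The pairs were picked by position with their values known, so no p is given, and libraries, depth and scaling are shared by both genes of a pair.

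**Figure D3:**
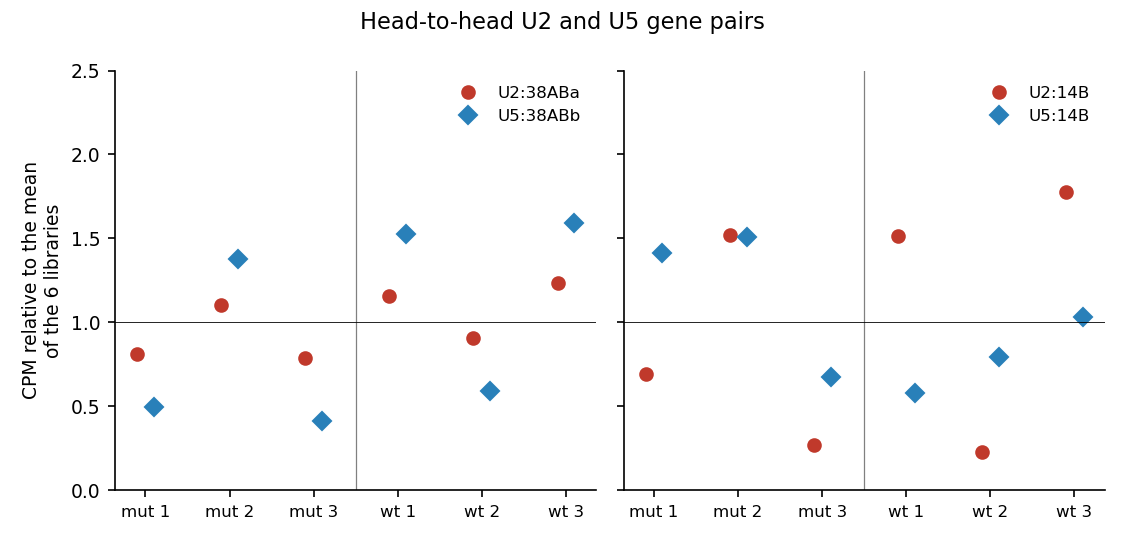
CPM of U2:38ABa and U5:38ABb (left) and of U2:14B and U5:14B (right), each divided by its mean over the 6 libraries, with mutant libraries (mut) left of wild-type libraries (wt). In the left panel both genes are above 1 in mutant replicate 2 and wild-type replicates 1 and 3, and in the right panel they part in mutant replicate 1 and wild-type replicate 1.

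U2 was then related to the other spliceosomal RNAs within each library, a measure that needs no scaling between libraries. U1, which pairs with the 5′ splice site, had 5532, 5161 and 4969 CPM in mutant replicates 1, 2 and 3, against 6317, 6113 and 6150 CPM in wild-type replicates 1, 2 and 3. Every mutant library lay below every wild-type library, as for 18.7% of all tested transcripts in one direction or the other, and the fold change did not pass the test (log2 fold change -0.25, SE 0.14, edgeR adjusted p = 0.411). The ratio of U2 to U1 counts was 0.424, 0.459 and 0.401 in mutant replicates 1, 2 and 3, against 0.371, 0.344 and 0.366 in wild-type replicates 1, 2 and 3. The ratio was 1.19 times as high in the mutant, a log2 difference of 0.25, with all mutant libraries above all wild-type libraries. This gave the smallest p of the design (exact permutation p = 0.1), and the value adjusted over the 4 ratios was 0.4. The difference lay between 0.20 and 0.29 with each library left out. Of all tested transcripts, 8.03% had every mutant level above every wild-type level. That share is of levels of single transcripts, and none was computed for ratios.

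The remaining ratios overlapped between the genotypes. The log2 ratio of U2 to U5 averaged -0.82 ± 0.272 in the mutant, against -0.43 ± 0.281 in the wild type (SD, n = 3 each; exact permutation p = 0.2, adjusted 0.4). Summed U5 itself was variable, at 4514, 4746 and 2828 CPM in mutant replicates 1, 2 and 3, against 2646, 2756 and 3733 CPM in wild-type replicates 1, 2 and 3. U4, which carries U6 into the spliceosome, kept the tightest ratio, with a log2 ratio of U2 to U4 of 1.83 ± 0.0703 in the mutant, against 1.86 ± 0.0324 in the wild type (SD, n = 3 each; exact permutation p = 0.7, adjusted 0.7). For U6, the Pol III product that pairs with U2, the log2 ratio of U2 to U6 was 2.98 ± 0.178 in the mutant, against 3.16 ± 0.179 in the wild type (SD, n = 3 each; exact permutation p = 0.3, adjusted 0.4). Against all other listed spliceosomal RNAs together the log2 difference was -0.00081 (exact permutation p = 1). Of the RNAs in that sum, U1 and U5 had the most counts in every library. Their log2 fold changes, neither of them called, had opposite signs (-0.25 for U1 and 0.40 for U5). The pooled value therefore does not describe U2 against U1 or U5 singly. Per 100 bases of annotated length, U2 stood at 1165 ± 110 CPM in the mutant, against 1163 ± 63.7 CPM in the wild type (SD, n = 3 each). On the same scale U1 stood at 3183 CPM in the mutant, against 3776 CPM in the wild type. U5 stood at 3258 CPM in the mutant, against 2458 CPM in the wild type, and both U1 and U5 were higher than U2 in every library. U4 and U6 were lower than U2 in every library, at 373 to 484 CPM for U4 and 207 to 315 CPM for U6. The recovery of each RNA through size selection and demethylation was not measured, so these are levels in the libraries and not in the cells.

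**Figure D4:**
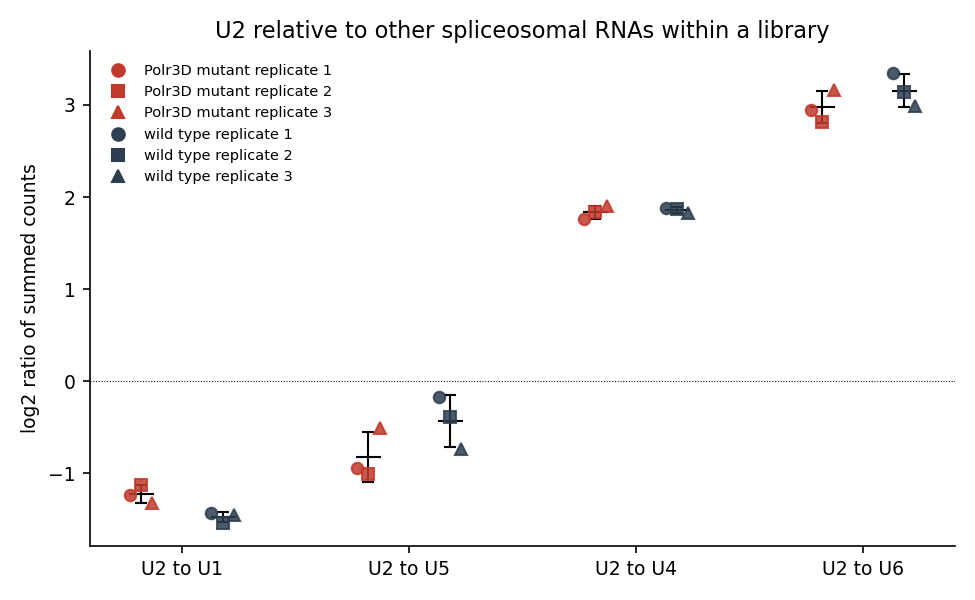
Log2 ratio of summed U2 counts to summed U1, U5, U4 and U6 counts in each library, with Polr3D mutant libraries left and wild-type libraries right; points are libraries, bars the mean and SD. The genotypes are separate for U2 to U1, with all mutant libraries higher, and overlap for the other 3 ratios.

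As a class, the other spliceosomal RNAs gave no calls. Of 18 listed transcripts of U1, U4, U5, U6, U11, U12, U4atac and U6atac, 16 were tested. None passed an adjusted p of 0.10 in the edgeR test, against 1.22% of all tested transcripts. At an unadjusted p below 0.05 there was 1, against 14.8% of all tested transcripts. DESeq2, with 30 calls over all tested transcripts, and limma-voom, with 0, called none of the 16 either. Their log2 fold changes had a median of 0.05, and that over all tested transcripts was -0.05. The transcript below 0.05 was U6atac, the Pol III-made counterpart of U6 in the minor spliceosome, with 26.5, 17.0 and 17.2 CPM in mutant replicates 1, 2 and 3, against 30.2, 26.0 and 27.3 CPM in wild-type replicates 1, 2 and 3. Mutant replicate 1 overlapped the wild-type libraries (log2 fold change -0.46, SE 0.20, edgeR adjusted p = 0.331). In U12, which takes the place of U2 on minor introns, the levels were 23.7 ± 3.92 CPM in the mutant, against 25.5 ± 3.53 CPM in the wild type (SD, n = 3 each), which overlapped (log2 fold change -0.10, SE 0.18, edgeR adjusted p = 0.765). U11, U4atac, U6, summed U4 and summed U5 had log2 fold changes from 0.034 to 0.40, none past the threshold. U12 and U11 are annotated at 238 and 275 bases, above the size selection limit of 200 nucleotides, and their recovery was not measured.

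**Figure D5:**
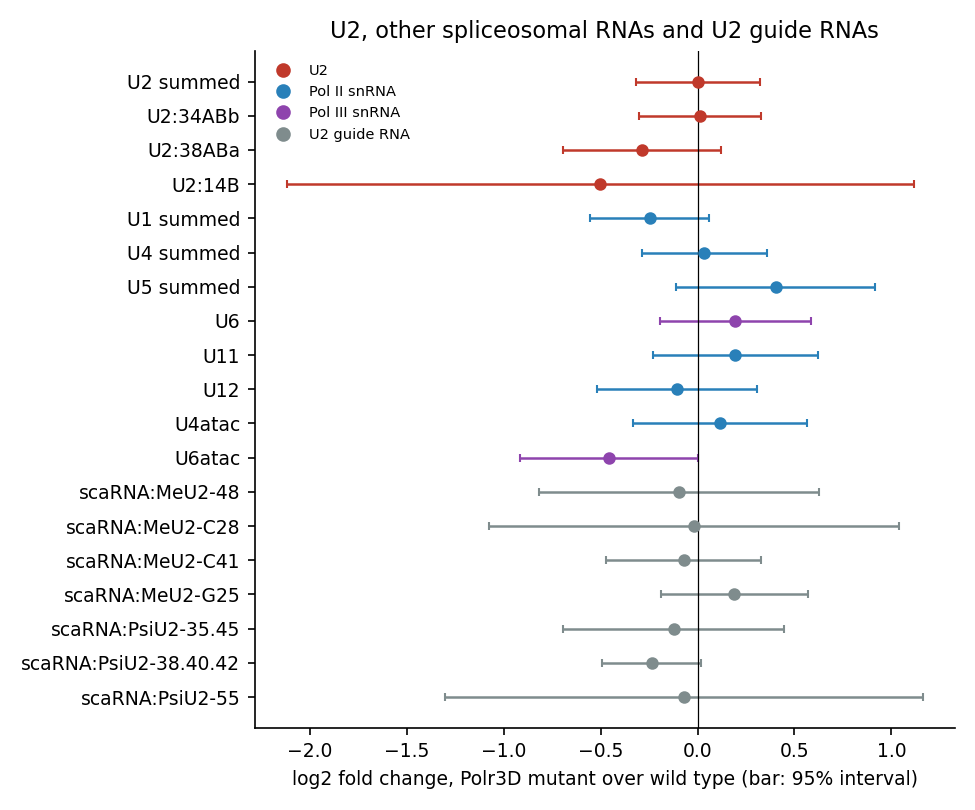
Log2 fold change of Polr3D mutant over wild type with its 95% interval (edgeR) for summed U2, its 3 tested copies, the other spliceosomal RNAs and 7 tested U2 guide RNAs. Summed U2 is centred on 0 with an interval from -0.32 to 0.32, and U2:14B has the widest interval, from -2.12 to 1.12.

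U2 carries many modified bases, placed with the help of small Cajal body RNAs (scaRNAs) that pair with it: those named Me guide methylation of the ribose and those named Psi guide pseudouridylation. Of 8 listed guide transcripts with U2 in their names 7 were tested. None passed an adjusted p of 0.10 in the edgeR test, against 1.22% of all tested transcripts. None had an unadjusted p below 0.05, against 14.8% of all. With DESeq2 (30 calls over all tested transcripts) and limma-voom (0 calls) none of the 7 passed or had an unadjusted p below 0.05. Their fold changes were below 0 in 6 and above 0 in 1, with a median of -0.07, and over all tested transcripts 55.5% were below 0, with a median of -0.05. The most abundant, PsiU2-38.40.42, had 90.8, 85.9 and 91.1 CPM in mutant replicates 1, 2 and 3, against 110, 104 and 102 CPM in wild-type replicates 1, 2 and 3. All mutant libraries lay below all wild-type libraries, as for 10.7% of all tested transcripts, and the log2 fold change was -0.24 (SE 0.11, edgeR adjusted p = 0.355). In the other 6 the genotypes overlapped. MeU2-G25 had 19.1 ± 1.79 CPM in the mutant, against 16.7 ± 1.94 CPM in the wild type (SD, n = 3 each; log2 fold change 0.19, edgeR adjusted p = 0.590). The least abundant, PsiU2-55 and MeU2-C28, averaged at most 1.48 CPM in either genotype.

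The transcripts outside U2 whose profile over the 6 libraries was most like that of summed U2 were the methylation guide Me18S-G1358c (Pearson's r 0.96 on log2 CPM), the main U4 copy FBtr0081489 (0.94), the U2 guide MeU2-C28 (0.93) and the snRNA LU (0.88). The U4 copy, for example, had 683, 647 and 525 CPM in mutant replicates 1, 2 and 3, against 621, 564 and 623 CPM in wild-type replicates 1, 2 and 3. Like summed U2, it was lowest in mutant replicate 3. MeU2-C28 had only 27, 25 and 12 counts in mutant replicates 1, 2 and 3, against 34, 12 and 24 in wild-type replicates 1, 2 and 3. Its profile can therefore turn with counting error. The transcripts named here were chosen for their likeness among 411 transcripts over 6 libraries, and no p is given.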

How the data were processed

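Short RNAs of fly midguts were sequenced in 3 Polr3D mutant and 3 wild-type libraries, grouped by sample title. Adapters were removed by the authors with Cutadapt (version 2.10) after a FastQC check, and Salmon (version 0.13.2) assigned the reads to all BDGP6 (release 32) transcripts. The authors deposited its estimated counts for transcripts shorter than 300 bases, rounded and not scaled. Of 531 identifiers, 527 matched the annotation (BDGP6, release 54, the same assembly); no sequences were used here. In R (version 4.3.3), edgeR (version 4.0.16) fitted genotype after filterByExpr (minimum count 10, minimum total 15; 411 kept) and TMM scaling, with Benjamini-Hochberg adjustment over all tested transcripts and the study's threshold of 0.10. For summed U2 and other sums, the row of the sum replaced its members (409 rows for U2). Intervals are at 95%. Log2 CPM used a prior count of 2. Shares and ratios were compared by exact two-sided permutation over libraries. The code was tested on simulated data. Alternatives were DESeq2 (version 1.42.0), limma-voom (version 3.58.1), other scalings, no filter, a replicate block and each library left out.

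Named were all U2 copies, the other spliceosomal RNAs by class, the U2 guide RNAs, and the 4 transcripts most correlated with summed U2; the minor snRNA copies and U5 neighbours named beyond these were chosen after their values were seen. Members and lists were chosen with earlier results of these data known. Libraries of a group were no copies of each other (chi-square over its degrees of freedom 183 to 1243), and nothing says they came from separate cohorts, so p-values measure the spread between these samples.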

Additional observations from a re-analysis of the deposited data

How the results depend on the processing

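Neither summed U2 nor a tested U2 copy was called in a fit across all transcripts under any alternative, and the lowest unadjusted p was 0.0267, for U2:38ABa with total counts only (adjusted p = 0.160). Limma-voom and the fits without any one wild-type library called 0 transcripts in all, so their lack of a U2 call says nothing of U2. The exact tests of shares and ratios could not go below 0.1, so they say nothing of stability. Summed U2, at 0.0023 in log2 fold change, changed sign with total counts only (-0.17), mitochondrial tRNA scaling (-0.18) and limma-voom (-0.00041), and ranged from -0.042 to 0.089 with each library left out. U2:34ABb changed sign with total counts only (-0.16) and mitochondrial tRNA scaling (-0.17), and ranged from -0.028 to 0.098 with each library left out. With each library left out, U2:38ABa ranged from -0.43 to -0.19 and U2:14B from -1.25 to -0.065, and U2:38ABa was at -0.46 with total counts only and -0.48 with mitochondrial tRNA scaling. With each library left out, the differences in share ranged from 0.41 to 1.05 percentage points for U2:34ABb, -0.79 to -0.39 for U2:38ABa and -0.26 to -0.014 for U2:14B. Likewise, the log2 differences of the ratios ranged from 0.20 to 0.29 for U1, -0.54 to -0.26 for U5, -0.27 to -0.085 for U6 and -0.062 to 0.0086 for U4, whose sign turned without mutant replicate 1. With all other spliceosomal RNAs in place of U1, the value was -0.00081, and that sum pools U1 and U5, whose fold changes had opposite signs. The cause of these moves was not tested. Dividing by annotated length cannot move the shares, since these copies have the same length.

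The number of transcripts called among all tested was 5, and 10 with RLE size factors, 16 with total counts only (8 higher, 8 lower), 16 with no filter, 30 with DESeq2, 0 with limma-voom (61 at an unadjusted p below 0.05) and 0 to 47 with each library left out. It was 0 without any one wild-type library, 1 without mutant replicate 2, 12 without mutant replicate 1 and 47 without mutant replicate 3. With the replicate number as a block, 14 were called, and summed U2 was at -0.00064 in log2 fold change. Same-numbered libraries did not deviate together (mean correlation -0.16, the lowest of the possible pairings, of which the highest had 0.14). With so few pairs, that correlation cannot exclude shared handling. Whether an equal number marks a common batch was not tested. No U2 call changed with the block.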
